A study of Mus musculus with 6 samples.

Results

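The genes described here encode the translation initiation factors of mouse cells together with the kinases and binding proteins that regulate them. They were taken by name, as every gene symbol made of "Eif", a digit from 1 to 6 and any further letters or digits, in either case; 2 matching names are left out by that rule and were not analysed here. In this way 52 of the 18134 distinct gene names in the deposited tables were members, on 72 rows, and rows that share a name were summed. The rule itself uses names and no measured value. RNA sequencing had been done on total RNA of mouse embryonic fibroblasts (MEFs, connective tissue cells grown from embryos), in 3 libraries with the genotype Ufl1-KO and 3 control libraries called NC, which is not spelled out. Ufl1 encodes the ligase that joins the small ubiquitin-like protein UFM1 to its targets. The series title speaks of a knockdown and of hypoxia, whereas the label of each library gives a genotype and no oxygen level, so the oxygen level of these libraries is not known here. The labels name no clone, knockout method, age or culture for either group, and the p-values therefore rest on differences among libraries that may be only technical.

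Initiation brings the initiator tRNA, the small ribosomal subunit and the mRNA together at a start codon. The GTPase eIF2 carries the initiator tRNA, eIF2B reloads it with GTP, and stress-activated kinases phosphorylate its alpha subunit, which turns eIF2 into an inhibitor of eIF2B. The scaffold eIF3 sits on the small subunit, while eIF4E binds the mRNA cap, eIF4A unwinds the leader and eIF4G bridges the cap complex, eIF3 and the poly(A)-binding protein. The 4E-binding proteins (4E-BPs) compete with eIF4G for eIF4E until the kinase mTOR phosphorylates them.

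Library totals ran from 15887011 to 21831860 counts. The targeted gene Ufl1 had 3.08, 3.76 and 4.60 CPM (counts relative to library totals that were scaled by the TMM method) in the Ufl1-KO libraries, against 23.0, 27.0 and 27.0 CPM in the NC libraries, a log2 fold change of -2.75 (SE 0.15, edgeR adjusted p = 1.34e-06). NC replicate 1 stood apart from the other NC libraries. Its counts differed from theirs by a chi-square per gene of 29.9 and 22.5, against 3.58 between NC replicates 2 and 3 and 2.35 to 3.95 among the Ufl1-KO libraries. Calls and list counts that change when it is left out are given without it as well. The fibroblast label was checked against 12 marker genes, whose summed level was 13940 to 14026 CPM in Ufl1-KO and 24505 to 29166 CPM in NC. Of the 11 that were tested 1 was higher and 8 were lower in Ufl1-KO; Thy1 was under 1 CPM in every library, and Lum was at 0 in all but NC replicate 1. Of markers of other cells, the 5 epithelial ones summed to 833 to 856 CPM in Ufl1-KO and 1254 to 1331 CPM in NC, nearly all of it from the keratins Krt18 and Krt19. The 5 leukocyte markers summed to 14.1 to 18.2 CPM in Ufl1-KO and 26.0 to 30.5 CPM in NC, with Cd3e at 0 in every library. Nearly all of that sum came from Cd68, with means of 15.6 CPM in Ufl1-KO and 27.9 CPM in NC. The 4 endothelial markers summed to 5.51 to 6.51 CPM in Ufl1-KO and 4.84 to 7.42 CPM in NC. The part of these marker levels in the results was not tested, and in bulk RNA fewer cells of a type and less RNA per cell cannot be told apart.

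Under TMM scaling the called initiation factors split evenly by direction, as all called genes did, and the split ran through their complexes. With library size alone more were called higher than lower, among members and among all genes (values below). All genes of the eIF4G family rose, as did 3 eIF2B subunits and the eIF2 kinases Eif2ak2 and Eif2ak1. By contrast, 8 of the 13 tested eIF3 subunits, both eIF1 genes, Eif4b, EIF4A2 and the eIF2 beta subunit fell. The eIF3 count was 6 with upper-quartile scaling, with library size alone and with no filter on low counts. Of the 52 members 50 passed the filter on low counts, and edgeR's quasi-likelihood test called 18 higher and 18 lower in Ufl1-KO at an adjusted p under 0.05. That is 72% of those tested, 36% in each direction, against 66.7% of all 12224 genes tested, of which 33.3% were called higher and 33.4% lower. The share called among initiation factors is thus near that of the transcriptome. Groups did not overlap for 22 members that were higher and 18 that were lower, 80% of those tested, against 71.7% of all genes (36.2% higher and 35.5% lower). The median log2 fold change was 0.01 over the members and 0.00 over all genes, and the median size of the change, without its sign, was 0.39 over the members and 0.46 over all genes.

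**Figure D1:**
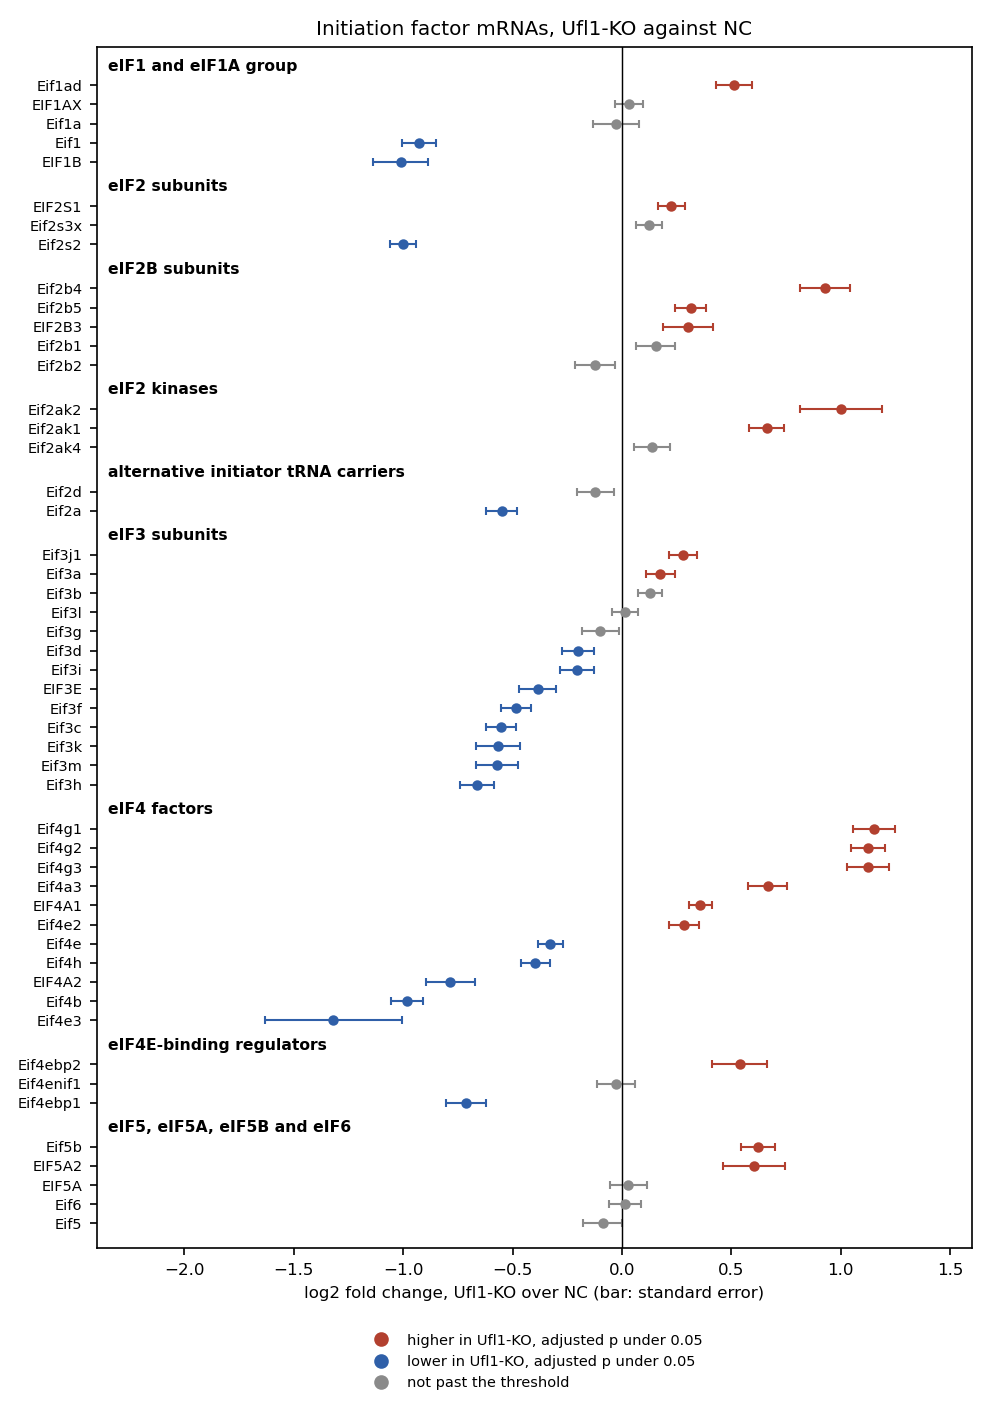
Log2 fold change of each tested initiation factor gene, Ufl1-KO over NC, grouped by complex. Points are edgeR estimates, bars are 1 standard error, and colour gives the call; the eIF4G family lies at 1.12 to 1.15 while Eif4b, Eif2s2, EIF1B and Eif1 lie between -1.01 and -0.93.

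A stricter test called fewer genes, and the share called among members was again near that of all genes. When the test asked for a change beyond 1.5-fold, 5 of the 50 tested members were called higher (Eif4g1, Eif4g2, Eif4g3, Eif2ak2 and Eif2b4). Another 5 were called lower (Eif1, EIF1B, Eif2s2, Eif4b and Eif4e3). Of all genes 9.93% were higher and 13.0% lower (22.9% in all). Leaving out NC replicate 1 kept the call of all 36 called members and gave 22 higher and 21 lower, against 38.6% higher and 37.1% lower, 75.8% in all, of all genes in that fit. The 7 members called in that fit alone were Eif1a, Eif2ak4, Eif2s3x and Eif3b, higher, and Eif2b2, Eif2d and Eif3g, lower; the largest of these changes was 0.21 on the log2 scale. NC replicate 1 lay nearer to the Ufl1-KO libraries than both other NC libraries did for 26 of the 36 called members (72.2%) and for 4959 of the 8157 called genes (60.8%). Scaling by library size alone, which moves the median of all genes to 0.18 on the log2 scale, called 26 members higher and 16 lower, against 43.9% higher and 25.5% lower of all genes (69.4% in all), and turned the sign of no called member.

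Promoters of the members were searched for motifs of known regulators of this machinery. RefSeq promoter windows of build GRCm38.p6, from 250 bases before to 50 after the transcript start, were held for 41 of the 52 members. The full set had 32851 windows for 27025 genes. A gene counted once, as a match if any of its windows held the motif. The E-box CACGTG, bound by MYC, MAX and related factors, was searched on both strands. It was found for 10 of the 41 members (24.4%), against 8.09% of 27025 genes and 11.9% of the genes tested here. It was in 4 of the 16 higher members with a window and 5 of the 13 lower ones; among tested genes the shares were 13.4% of those higher and 11.0% of those lower. The interferon-stimulated response element (GAAA, any 2 bases, GAAA) was found for 4 of the 41 members (9.76%), EIF2S1, Eif2ak2, Eif2s3x and Eif3a. Its share was 3.99% of all genes and 3.62% of tested genes. The amino-acid response element TGATGNAAN was found for 1 member (2.44%), Eif2s3x, against 4.50% of all genes and 2.7% of tested genes. The cAMP response element TGACGTCA was in none, against 2.03% of all genes and 3.62% of tested genes. A run of at least 8 pyrimidines within 20 bases of the start was searched on the coding strand. This is the kind of tract that begins the translation-regulated TOP mRNAs. A run was found for 9 members (22.0%), against 18.4% of all genes and 19.0% of tested genes. It was in 1 of the 16 higher members, 3 of the 13 lower ones and 5 of the 12 not called. Among tested genes the shares were 16.0% of those higher and 22.5% of those lower. A match is a description of letters and says nothing of binding.

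The windows of 4 members that changed are shown from 250 bases before to 30 after the start, read along the coding strand, with matched motifs in capitals. Eif4g1 (chr16:20672477-20672756, plus strand) holds E-boxes at -54 and +16, Eif2ak2 (chr17:78882543-78882822, minus strand) holds the interferon-stimulated element at +19, Eif3f (chr7:108934165-108934444, plus strand) holds an E-box at -68 and a pyrimidine run that crosses the start, and Eif4b (chr15:102073523-102073802, plus strand) holds none of the motifs searched. The RefSeq start used for Eif4g1 lies inside the gene span that GENCODE gives, downstream of its first annotated start.
Eif4g1: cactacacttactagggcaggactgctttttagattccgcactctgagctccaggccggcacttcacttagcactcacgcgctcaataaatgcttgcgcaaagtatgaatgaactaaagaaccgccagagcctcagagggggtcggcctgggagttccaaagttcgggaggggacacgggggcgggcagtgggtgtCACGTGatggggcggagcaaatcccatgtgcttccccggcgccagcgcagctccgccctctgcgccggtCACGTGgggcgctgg
Eif2ak2: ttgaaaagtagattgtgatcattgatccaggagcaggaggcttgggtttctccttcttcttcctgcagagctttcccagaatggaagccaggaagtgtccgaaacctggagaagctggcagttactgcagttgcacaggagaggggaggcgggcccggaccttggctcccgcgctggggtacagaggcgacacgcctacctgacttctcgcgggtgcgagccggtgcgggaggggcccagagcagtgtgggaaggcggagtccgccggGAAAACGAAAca
Eif3f: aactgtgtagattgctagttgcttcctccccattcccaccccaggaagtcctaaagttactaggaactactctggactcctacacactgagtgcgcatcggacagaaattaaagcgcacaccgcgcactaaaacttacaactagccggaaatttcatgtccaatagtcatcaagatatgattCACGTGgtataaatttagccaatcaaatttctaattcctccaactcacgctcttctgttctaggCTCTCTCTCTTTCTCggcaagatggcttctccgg
Eif4b: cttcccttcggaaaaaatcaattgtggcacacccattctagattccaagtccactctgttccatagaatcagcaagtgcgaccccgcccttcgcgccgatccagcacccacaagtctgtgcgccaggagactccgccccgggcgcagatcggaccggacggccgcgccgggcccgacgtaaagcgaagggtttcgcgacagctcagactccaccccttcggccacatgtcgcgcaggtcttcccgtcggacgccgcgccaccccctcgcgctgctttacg
The higher member Eif4g1 and the lower member Eif3f thus both carry the E-box, and the lower member Eif4b carries none of these letters.

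The eIF4F group, which recruits capped mRNA, changed in opposite directions by subunit. Of the 11 eIF4 genes tested 6 rose and 5 fell, against 33.3% higher and 33.4% lower among all genes, the shares against which each later list is read. Eif4g1, the main scaffold (chr16:20668313-20692884 of mm10), whose promoter window with 2 E-boxes is shown above, had 795, 836 and 767 CPM in the Ufl1-KO libraries, against 419, 324 and 335 CPM in the NC libraries. The groups did not overlap, the lowest Ufl1-KO library lying well above the highest NC library, for a log2 fold change of 1.15 (SE 0.10, edgeR adjusted p = 1.16e-05). Eif4g2 (chr7:111067750-111083030), also called DAP5, encodes a relative that lacks the eIF4E-binding part and serves cap-independent initiation. Its level was 938, 984 and 923 CPM in Ufl1-KO against 478, 394 and 433 CPM in NC, a log2 fold change of 1.12 (SE 0.08, edgeR adjusted p = 3.63e-06). Eif4g3 (chr4:137993022-138208508), a second cap-binding scaffold, had 32.6, 30.5 and 33.6 CPM in Ufl1-KO against 13.2, 16.0 and 15.1 CPM in NC. The change was likewise 1.12 (SE 0.10, edgeR adjusted p = 1.41e-05), at a level well under that of the other scaffolds per length, 6.13 FPKM in Ufl1-KO against 2.53 FPKM in NC.

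The helicases diverged. EIF4A1, the major helicase of cap-dependent initiation (chr11:69666936-69672423), had 715, 745 and 724 CPM in Ufl1-KO against 564, 555 and 585 CPM in NC, higher in every Ufl1-KO library by a log2 fold change of 0.36 (SE 0.05, edgeR adjusted p = 0.000346). Its close paralog EIF4A2 (chr16:23107444-23114136) had 237, 227 and 250 CPM in Ufl1-KO against 332, 449 and 449 CPM in NC, a log2 fold change of -0.78 (SE 0.11, edgeR adjusted p = 0.000257). The sources used here do not say how reads shared by these similar genes were counted. Eif4a3, the helicase of the exon junction complex rather than of cap binding, was higher at 99.2 ± 0.73 CPM in Ufl1-KO against 62.5 ± 7.5 CPM in NC (SD, n = 3 each), a log2 fold change of 0.67. In length-corrected units the ratio of EIF4A1 to EIF4A2 was 3.26 ± 0.20 in Ufl1-KO and 1.5 ± 0.24 in NC (SD, n = 3 each).

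Both cofactors of the helicase fell. Eif4b (chr15:102073773-102097173), which stimulates eIF4A, had 834, 836 and 849 CPM in Ufl1-KO against 1478, 1724 and 1775 CPM in NC. The groups lay far apart, with a log2 fold change of -0.98 (SE 0.07, edgeR adjusted p = 6.45e-06). Eif4h, a smaller relative of Eif4b with the same kind of activity, was at 380 ± 5.42 CPM in Ufl1-KO and 499 ± 35.9 CPM in NC (SD, n = 3 each), a log2 fold change of -0.40. The FPKM ratio of Eif4b to Eif4g1 was 1.34, 1.28 and 1.38 in the Ufl1-KO libraries and 4.48, 6.85 and 6.85 in the NC libraries.

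Among the cap-binding proteins, Eif4e itself was lower, at 129, 130 and 125 CPM in Ufl1-KO against 159, 165 and 159 CPM in NC, a log2 fold change of -0.33 (SE 0.06, edgeR adjusted p = 0.000849). Eif4e2, a cap-binding homologue used by translational repressors and in hypoxia, was higher by 0.28 on the log2 scale. Eif4e3 was lower by the largest estimate of the eIF4 genes, -1.32 (SE 0.31, edgeR adjusted p = 0.00462), but from 18 to 51.0 counts per Ufl1-KO library and 47 to 75 per NC library. Eif4e1b, the oocyte-type homologue, had at most 1 count in any library and was not tested. The FPKM ratio of Eif4g1 to Eif4e was 2.41, 2.53 and 2.47 in the Ufl1-KO libraries and 1.02, 0.769 and 0.778 in the NC libraries. It divides a gene called higher by a gene called lower and adds no further support to those calls.

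**Figure D2:**
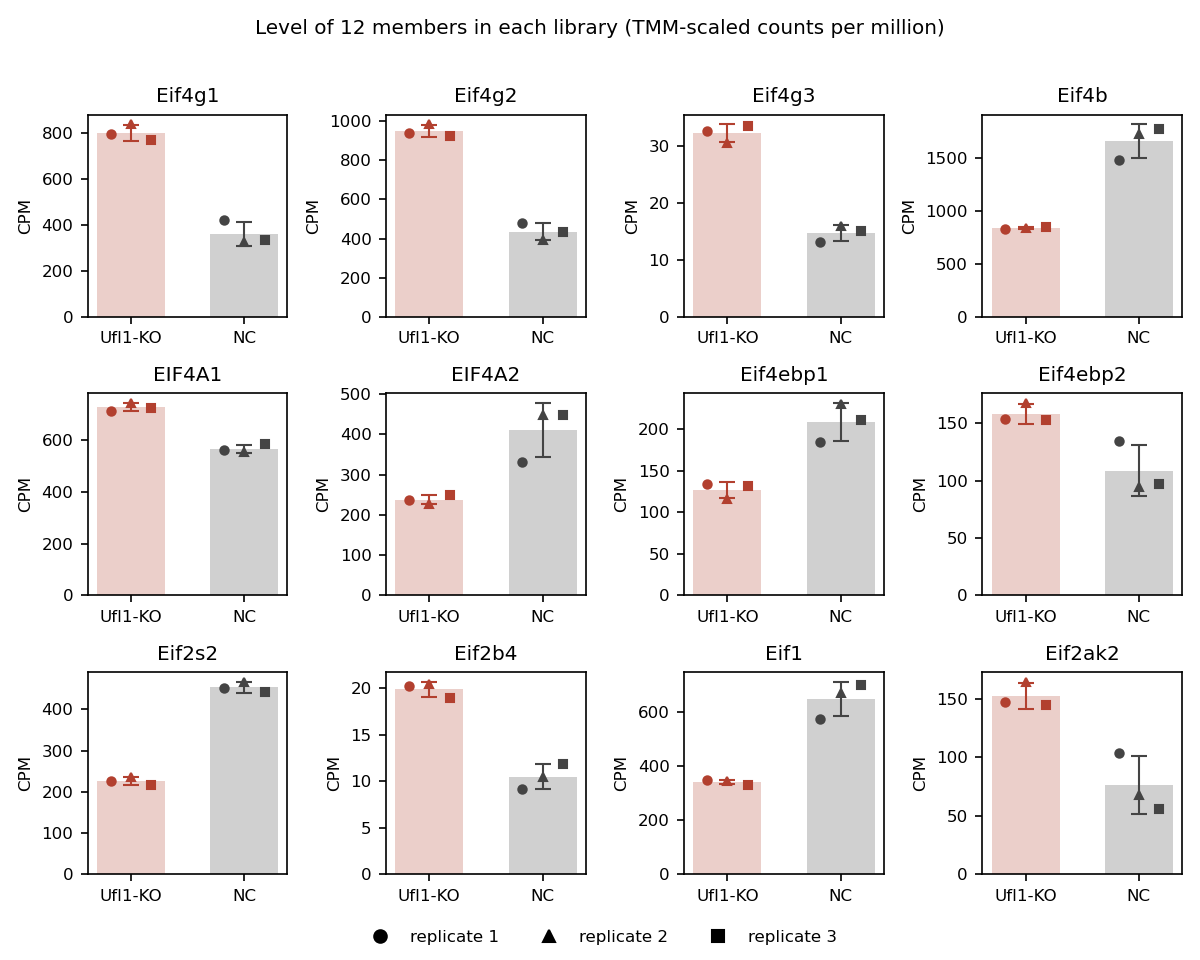
Level in CPM of 12 initiation factor genes in each library, Ufl1-KO left and NC right. Bars are group means with SD, and symbols give the replicate number. None of these 12 called genes has overlapping groups, and 71.7% of all genes tested had none either. NC replicate 1 is the NC library nearest to Ufl1-KO for all of the 12 but Eif4g3, EIF4A1, Eif2s2 and Eif2b4.

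The 4E-binding proteins moved in opposite directions. Eif4ebp1 (4E-BP1, chr8:27260329-27276674) had 134, 116 and 131 CPM in Ufl1-KO against 185, 230 and 211 CPM in NC, a log2 fold change of -0.71 (SE 0.09, edgeR adjusted p = 0.000148). Eif4ebp2 (4E-BP2) had 154, 167 and 152 CPM in Ufl1-KO against 134, 94.5 and 97.2 CPM in NC, a log2 fold change of 0.54 (SE 0.13, edgeR adjusted p = 0.0044). The third family member, Eif4ebp3, had at most 1.71 counts in a Ufl1-KO library and at most 6.45 in an NC library and was too low to test. Eif4enif1, which carries eIF4E into the nucleus and to P-bodies, did not pass the test at a log2 fold change of -0.03. The FPKM ratio of Eif4ebp1 to Eif4ebp2 was 2.32 ± 0.27 in Ufl1-KO against 4.99 ± 0.99 in NC, while the sum of both over Eif4e was 1.37 ± 0.06 in Ufl1-KO against 1.47 ± 0.10 in NC (SD, n = 3 each). The individual values of that second ratio overlapped between the groups. All FPKM ratios between members are given as descriptions, since an exact two-sided permutation test of 3 against 3 libraries cannot give a p under 0.1. Where a ratio joins a gene called higher with a gene called lower, it restates their calls.

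**Figure D3:**
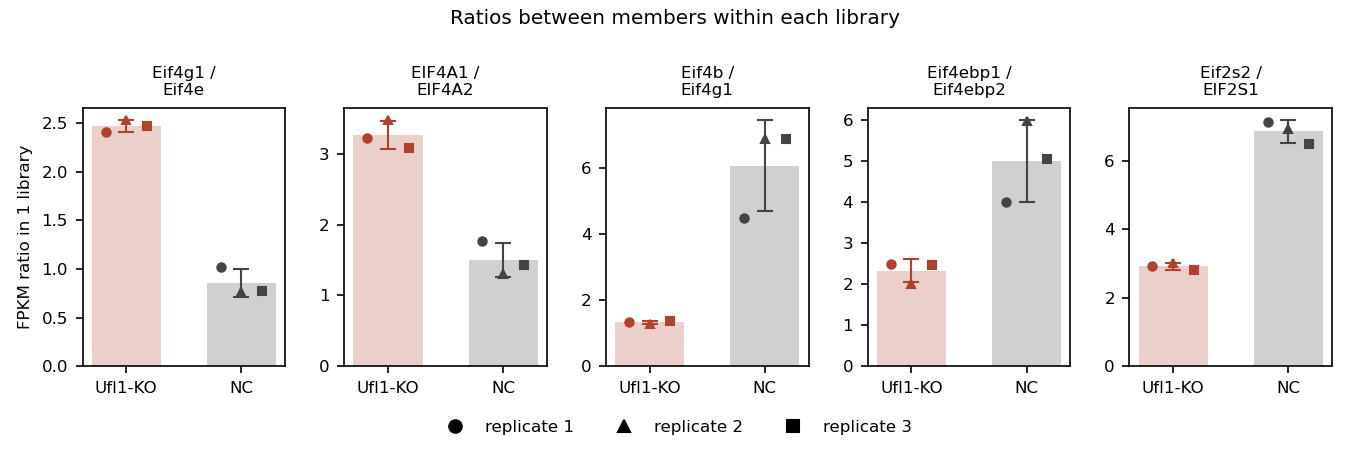
Ratios of FPKM values between members within each library, Ufl1-KO left and NC right, for 5 pairs of genes. Bars are group means with SD and symbols give the replicate number; the ratio of Eif4g1 to Eif4e averaged 2.47 in Ufl1-KO and 0.855 in NC, and that of Eif4ebp1 to Eif4ebp2 averaged 2.32 in Ufl1-KO and 4.99 in NC.

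The subunits of eIF2 did not move together. Eif2s2, the beta subunit that contacts eIF5 and eIF2B (chr2:154871410-154892935), had 225, 237 and 217 CPM in Ufl1-KO against 452, 467 and 441 CPM in NC. Both groups were tight, for a log2 fold change of -1.0 (SE 0.06, edgeR adjusted p = 1.84e-06). EIF2S1, the alpha subunit that the kinases phosphorylate, was slightly higher at 104, 105 and 103 CPM in Ufl1-KO against 85.1, 90.8 and 91.1 CPM in NC (log2 fold change 0.22, SE 0.06, edgeR adjusted p = 0.00972). Eif2s3x, the GTP-binding gamma subunit, did not pass the test (log2 fold change 0.12, edgeR adjusted p = 0.0958) but did without NC replicate 1 (0.13, edgeR adjusted p = 0.0168). The FPKM ratio of Eif2s2 to EIF2S1 was 2.92, 3.02 and 2.82 in the Ufl1-KO libraries and 7.14, 6.92 and 6.49 in the NC libraries.

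Of the 5 subunit genes of the exchange factor eIF2B 3 rose and none fell, against 33.3% higher among all genes, and without NC replicate 1 there were 3 higher and 1 lower. Eif2b4, the delta subunit of the regulatory core (chr5:31187558-31193430), had 20.2, 20.5 and 19.0 CPM in Ufl1-KO against 9.13, 10.5 and 11.8 CPM in NC, a log2 fold change of 0.93 (SE 0.11, edgeR adjusted p = 0.00011). Eif2b5, the catalytic epsilon subunit, rose by 0.31 on the log2 scale (SE 0.07, edgeR adjusted p = 0.00326), with no overlap between the groups. EIF2B3, the gamma subunit, was called higher at 0.30 (edgeR adjusted p = 0.0419), a call lost without either of Ufl1-KO replicates 1 and 2 or NC replicates 2 and 3, at adjusted p from 0.0582 to 0.147. Eif2b1 (alpha) and Eif2b2 (beta) had log2 fold changes of 0.15 and -0.13 and did not pass the test; without NC replicate 1 Eif2b2 was called lower (-0.19, edgeR adjusted p = 0.018).

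Of the 3 eIF2 kinase genes tested 2 rose, against 33.3% of all genes, and without NC replicate 1 all 3 were called higher, against 38.6%. Eif2ak2 encodes PKR, the interferon-induced kinase that senses double-stranded RNA (chr17:78852564-78882573). It had 147, 165 and 145 CPM in Ufl1-KO against 104, 68.1 and 56.0 CPM in NC, a log2 fold change of 1.0 (SE 0.19, edgeR adjusted p = 0.00127) that was 1.30 without NC replicate 1. Eif2ak1, which encodes HRI, the kinase of haem shortage and mitochondrial stress (chr5:143817788-143904251), had 67.5, 64.6 and 64.3 CPM in Ufl1-KO against 44.9, 38.4 and 40.9 CPM in NC, with a log2 fold change of 0.66 (SE 0.08, edgeR adjusted p = 9.24e-05). Eif2ak4 encodes GCN2, the amino-acid sensor; at 39.7 ± 0.35 CPM in Ufl1-KO and 36.1 ± 3.17 CPM in NC (SD, n = 3 each) it did not pass the test (log2 fold change 0.14, edgeR adjusted p = 0.176), but was called higher without NC replicate 1 (0.21, edgeR adjusted p = 0.0102). Of the carriers that can deliver the initiator tRNA without eIF2, Eif2a fell to 81.3, 82.3 and 81.9 CPM in Ufl1-KO, against 110, 126 and 124 CPM in NC (log2 fold change -0.55, edgeR adjusted p = 0.000144), and Eif2d did not pass the test at -0.12 but was called lower without NC replicate 1 (-0.17, edgeR adjusted p = 0.0258).

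Genes that act on eIF2 phosphorylation moved in both directions. Of 10 tested phosphatase genes and kinase cofactors 4 rose and 4 fell, with a median log2 fold change of 0.20, and without NC replicate 1 there were 6 higher and 4 lower. Impact, an inhibitor of GCN2 activation, had 51.7, 51.4 and 47.7 CPM in Ufl1-KO against 20.5, 20.3 and 19.4 CPM in NC (log2 fold change 1.32, SE 0.08, edgeR adjusted p = 1.76e-06). Dnajc3 (P58IPK), a chaperone of the endoplasmic reticulum first described as an inhibitor of PKR, rose by 1.20 (SE 0.10, edgeR adjusted p = 8.78e-06). Ppp1r15a (GADD34), the stress-induced subunit that directs protein phosphatase 1 to eIF2, fell to 105, 100 and 104 CPM in Ufl1-KO, against 169, 168 and 144 CPM in NC (log2 fold change -0.64, SE 0.08, edgeR adjusted p = 9.15e-05). PPP1CB, a catalytic subunit of that phosphatase, fell by 0.51 on the log2 scale.

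Under TMM scaling the eIF3 genes leaned downward. Of 13 tested 8 fell and 2 rose, with a median log2 fold change of -0.21, against 33.4% lower among all genes. Without NC replicate 1 there were 9 lower and 3 higher. With library size alone 6 fell and 4 rose, against 25.5% lower and 43.9% higher among all genes. Of the 8 genes of the octamer built from PCI and MPN domain subunits 6 fell and 1 rose, with a median of -0.52, and of the 5 other subunits 2 fell and 1 rose, with a median of -0.10; this division was made after the values were seen. Eif3h, an MPN subunit and the eIF3 gene with the highest FPKM, had 358, 349 and 366 CPM in Ufl1-KO against 501, 590 and 609 CPM in NC (log2 fold change -0.66, SE 0.08, edgeR adjusted p = 8.28e-05). Eif3m, Eif3k, Eif3c, Eif3f and EIF3E fell by 0.57, 0.57, 0.55, 0.48 and 0.39 on the log2 scale.

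Exceptions lay on both sides. Eif3a, the largest core subunit, was called higher by 0.18 (edgeR adjusted p = 0.0428), with 643, 674 and 622 CPM in Ufl1-KO against 595, 526 and 594 CPM in NC, and this call was lost without any 1 of the Ufl1-KO replicates or without NC replicate 2, at adjusted p from 0.0618 to 0.147. The loosely bound subunit Eif3j1 rose by 0.28 (SE 0.06, edgeR adjusted p = 0.0038); its name stands on 2 rows, of which the larger holds 69.2% of its counts. The octamer subunit Eif3l had 195, 198 and 199 CPM in Ufl1-KO and 189, 191 and 206 CPM in NC, a log2 fold change of 0.01. Eif3b and Eif3g, which lie on the peripheral module, did not pass the test at 0.13 and -0.10. Without NC replicate 1 Eif3b was called higher (0.15, edgeR adjusted p = 0.00209) and Eif3g lower (-0.18, edgeR adjusted p = 0.00414). The calls of Eif3d (-0.20) and Eif3i (-0.21) depended on the scaling: with library size alone they were -0.02 and -0.03, with adjusted p of 0.796 and 0.767. Both were also lost when any 1 library other than NC replicate 1 was left out, at adjusted p from 0.063 to 0.165.

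**Figure D4:**
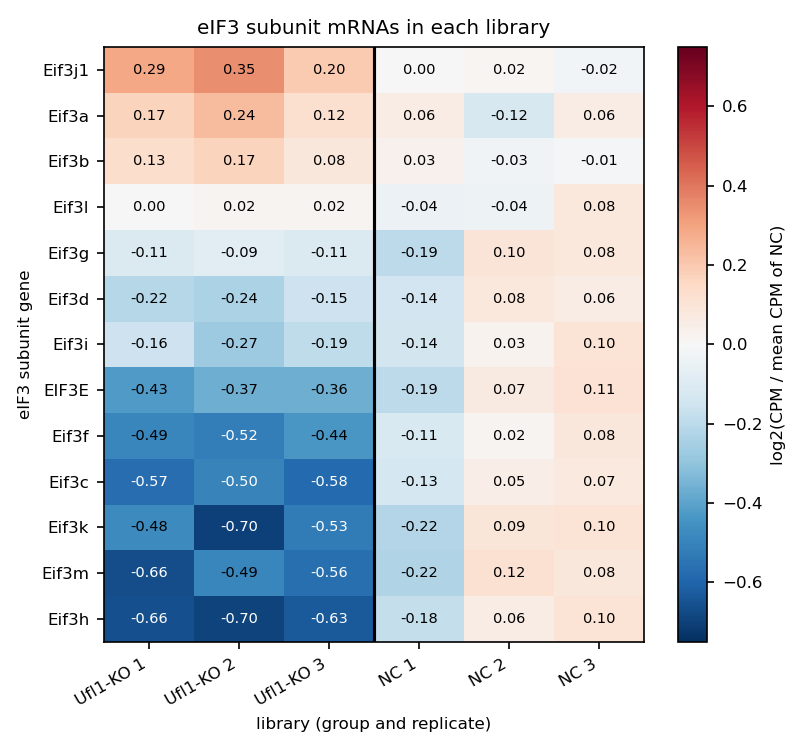
Log2 level of each eIF3 gene in each library relative to the gene's mean CPM in NC, with Ufl1-KO libraries left of NC libraries. Genes are ordered by log2 fold change; Eif3h (-0.66) and Eif3j1 (0.28) mark the extremes and Eif3l (0.01) varies little.

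Factors of start codon choice and subunit joining divided as well. Eif1, the gatekeeper of start codon selection (chr11:100319885-100322096), had 347, 342 and 330 CPM in Ufl1-KO against 574, 668 and 697 CPM in NC (log2 fold change -0.93, SE 0.08, edgeR adjusted p = 1.16e-05). Its paralog EIF1B fell with it, to 55.6, 52.0 and 52.6 CPM in Ufl1-KO, against 84.8, 122 and 116 CPM in NC (log2 fold change -1.01, SE 0.13, edgeR adjusted p = 0.000116). The FPKM ratio of these paralogs was 5.0 ± 0.14 in Ufl1-KO and 4.77 ± 0.52 in NC (SD, n = 3 each), and reads they share may have been split between them. Eif1a and EIF1AX, the eIF1A genes that open the scanning ribosome, had log2 fold changes of -0.03 and 0.03, and Eif1ad rose by 0.51; without NC replicate 1 Eif1a turned to 0.13 and was called higher (edgeR adjusted p = 0.025). Eif5, the GTPase-activating partner of eIF2, did not pass the test at -0.09, with the groups overlapping. Eif5b, the GTPase of subunit joining, rose to 160, 170 and 152 CPM in Ufl1-KO, against 115, 99.8 and 98.5 CPM in NC (log2 fold change 0.62, SE 0.08, edgeR adjusted p = 0.000134).

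The hypusine-bearing factor EIF5A was among the most abundant members per length, at 351 FPKM in Ufl1-KO and 302 FPKM in NC, and its log2 fold change from the counts was 0.03. Its minor paralog EIF5A2 rose by 0.60 (SE 0.14, edgeR adjusted p = 0.00467) at 13.5, 15.3 and 15.8 CPM in Ufl1-KO against 11.8, 8.97 and 8.51 CPM in NC. Eif6, which keeps the ribosomal subunits apart, had a log2 fold change of 0.01. The order of levels also differed between the groups. The most abundant member by mean FPKM was EIF4A1 in Ufl1-KO (502 FPKM, against 343 FPKM in NC), whereas Eif1 came first in NC (272 FPKM in Ufl1-KO, against 457 FPKM in NC). The deposited FPKM values are scaled by each library's own total, so a gene with a log2 fold change near 0 is higher in Ufl1-KO on that scale.

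Genes that act next to these factors did not share 1 direction either. Of 16 cap and poly(A) partners of eIF4, 7 rose and 8 fell, with a median of -0.10. Pabpc1, the poly(A)-binding protein that eIF4G contacts, had 1562, 1506 and 1539 CPM in Ufl1-KO against 2680, 2863 and 2925 CPM in NC (log2 fold change -0.88, SE 0.06, edgeR adjusted p = 2.88e-06). Paip2b, an inhibitor of poly(A)-binding protein, fell by 0.67 on the log2 scale, and Mknk2, a kinase that phosphorylates eIF4E, by 0.48. Of 11 genes of the kinase arm that leads to the 4E-BPs, 6 rose and 2 fell, with a median of 0.25, against 33.3% higher and 33.4% lower among all genes. Those that fell, Ddit4 (REDD1) and Deptor, are inhibitors of mTOR signalling, with log2 fold changes of -0.91 (SE 0.06, edgeR adjusted p = 4.4e-06) and -0.99 (SE 0.11, edgeR adjusted p = 6.49e-05). Rps6kb1, the S6 kinase downstream of mTOR, rose by 0.87 and Tsc2, an upstream inhibitor of it, by 0.35.

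In the list of reinitiation, recycling and eIF5-mimic genes 5 of 7 rose and none fell, with a median of 0.66, against 33.3% higher among all genes; without NC replicate 1 there were 6 higher. BZW1, an eIF5 mimic that competes with eIF5 for eIF2, had 354, 379 and 349 CPM in Ufl1-KO against 185, 164 and 173 CPM in NC (log2 fold change 1.05, SE 0.07, edgeR adjusted p = 2.69e-06). Dhx29, a helicase that helps the small subunit through structured leaders, had 22.8, 23.2 and 19.2 CPM in Ufl1-KO against 8.53, 6.14 and 7.29 CPM in NC (log2 fold change 1.57, SE 0.14, edgeR adjusted p = 1.66e-05). Denr, which acts with Mcts1 in reinitiation, rose by 0.82, the ribosome recycling factor ABCE1 by 0.66 and the second eIF5 mimic Bzw2 by 0.54. Mcts2 (0.41, edgeR adjusted p = 0.0507) and Mcts1 (-0.12) did not pass the test. Of 10 tested elongation and release factor genes 4 rose and 4 fell, with a median of -0.13, and without NC replicate 1 there were 4 higher and 6 lower. Eef2, the translocase of elongation, and Eef1d fell by 0.71 and 0.61, while Eef1e1 and the release factor Gspt1 rose by 0.83 and 0.81.

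The members that rose had a greater median length than those that fell. The length that links the deposited counts to the FPKM values can differ between libraries, so each gene's median over libraries was used. This length was 4.09 kb in the median over the 18 higher members. It was 1.90 kb over the 18 lower ones and 2.17 kb over those not called. Over all genes the medians were close, 2.92 kb for those called higher and 2.86 kb for those called lower. Spearman's rho between this length and the log2 fold change was 0.49 over the 50 tested members and 0.00 over the 12224 genes. Both are descriptions across genes, which share the same libraries and are not independent replicates.

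**Figure D5:**
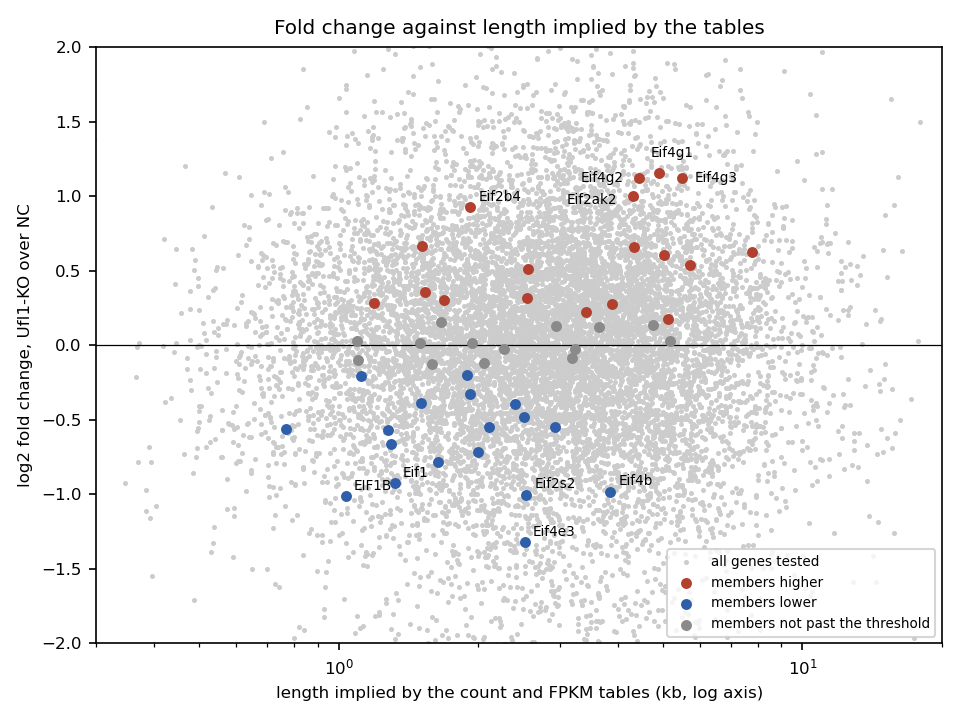
Log2 fold change (Ufl1-KO over NC) against the length implied by the deposited counts and FPKM values (kb, log axis), for initiation factor genes over all tested genes in grey. 439 of the 12224 genes lie outside the axes; the members run upward with length (rho 0.49) and all genes do not (rho 0.00).

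Members lay on 19 chromosomes, and 3 pairs of neighbouring members were under 1 Mb apart. Eif2b5 and Eif4g1, both higher, lie 159 kb apart on chromosome 16. EIF4A1, which was higher, lies 244 kb from EIF5A, which did not pass the test, and Eif2s2, which was lower, lies 927 kb from Eif6, which did not pass it either.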

How the data were processed

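Total RNA of 3 Ufl1-KO and 3 NC libraries had been sequenced. The submitters' processing notes name the builds mm10, hg38 and GRCh38 and the tools featureCounts 2.0.0, STAR 2.7.7a and fastp 0.20.1, with no role for each. The deposited estimated counts are not normalised; 7.29% to 8.09% of the 22274 rows per library lay more than 0.001 from a whole number, so values were rounded. The sources used here do not give the annotation, the strand setting or the origin of fractional values. The deposited FPKM values scale those counts by a length and by library total. For some genes that length differs between libraries. Eif2b1 had 556 and 740 counts in NC replicates 1 and 2 but 20.2 and 20.5 FPKM, a gap that their totals (17579470 and 19779066) do not make up. FPKM ratios can thus also reflect a change in that length. Rows naming no gene (1225, holding 0.594% to 0.661% of counts) were left out, and rows with the same symbol in any case were summed (1045 names). Symbols are printed as the files give them, and overlapping, antisense and near-identical genes are uncertain.

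The test was that of edgeR 4.0.16 under R 4.3.3: TMM scaling, filterByExpr, the quasi-likelihood test with genotype alone, two-sided, Benjamini-Hochberg adjusted over 12224 genes at 0.05. SE is the log2 fold change over the root of F. Replicates were compared by chi-square; no pair agreed within sampling noise. The alternatives were other scalings, DESeq2 1.42.0, limma 3.58.1 (voom, and log2(FPKM + 1) or log2(FPKM + 0.1) at a mean FPKM of at least 0.1 or with no filter), no filter, a CPM of at least 1 in 3 libraries, rows kept separate, a test against a fold change of 1.5, a replicate block, and each library left out. The fit was also run on simulated data in which far fewer genes changed than were called here. That run does not cover a change of this extent. Coordinates are those of GENCODE M21 (mm10) and RefSeq promoters are of GRCm38.p6. Figures used matplotlib 3.10.9.

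Members and lists were chosen with earlier results of these data known. Any member could be named; of each neighbouring list, up to 4 called genes with the smallest p, and all genes of a list of at most 7. The single value of 1 gene this rule takes is not reported here. The marker genes Thy1, Lum, Krt18, Krt19, Cd68 and Cd3e fall outside this rule and were named after their values were seen.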

Additional observations from a re-analysis of the deposited data

How the results depend on the processing

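Of the 36 called members, 31 (16 higher, 15 lower) kept direction and call in all 18 settings other than the test against a fold change of 1.5. The exceptions were EIF2B3, EIF3E, Eif3a, Eif3d and Eif3i, and none of the 36 reversed in any of the 19 settings; the cause was not tested. EIF3E was lost only on log2(FPKM + 1) without a filter (adjusted p = 0.066). With library size alone, and in each FPKM fit, the eIF1 group had 2 higher, eIF2 had 2, eIF3 had 4 and the group of eIF5, eIF5A, eIF5B and eIF6 had 4. The FPKM fits also had 2 lower among the 4E-binding regulators, and the FPKM fit without a filter had 5 lower eIF3 genes. Library size alone called 43.9% of all genes higher and 25.5% lower. The shares of all genes in the FPKM fits are not given here. Beyond a fold change of 1.5, 1214 genes were higher and 1587 lower, and 5 members each way: 3 higher and 2 lower eIF4 factors, 1 higher eIF2 kinase, 1 higher eIF2B subunit, 0 higher in the eIF1, eIF2, eIF3, 4E-binding and eIF5 to eIF6 groups, and 0 lower in the eIF3, 4E-binding and initiator tRNA carrier groups. Leaving out each library in turn gave 16 to 22 members higher and 16 to 21 lower, 1 to 3 higher eIF3 genes, 1 to 2 higher in the eIF1 and eIF2 groups, 0 to 1 lower eIF2B subunits and 1 to 2 lower initiator tRNA carriers. Each upper end came without NC replicate 1. That fit called 38.6% of all genes higher and 37.1% lower, against 33.3% and 33.4% with all libraries. For the other libraries left out, the shares of all genes are not given here.

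Replicate numbers did not pair the libraries: deviations of same-numbered libraries correlated at -0.18 to 0.02, and not every library correlated best with its own number. With the replicate block 16 members were higher and 16 lower, with 1 higher eIF3 gene. The shares of all genes in that fit are not given here, so these counts are not read as particular to the members.

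Some members that were not called reversed. With library size alone the log2 fold changes were 0.15 for Eif1a, 0.055 for Eif2b2, 0.058 for Eif2d, 0.080 for Eif3g, 0.15 for Eif4enif1 and 0.089 for Eif5. On log2(FPKM + 1), with and without a filter, they were 0.15 for Eif1a, 0.055 for Eif2b2, 0.043 for Eif2d, 0.084 for Eif3g and 0.12 for Eif4enif1; on log2(FPKM + 0.1) they were 0.16, 0.057, 0.045, 0.085 and 0.13. Leaving out each library in turn gave -0.11 to 0.13 for Eif1a, -0.00041 to 0.063 for EIF1AX, -0.083 to 0.086 for Eif4enif1, -0.14 to 0.031 for Eif5, -0.052 to 0.095 for EIF5A and -0.023 to 0.069 for Eif6. Low counts limit Eif4e3, Eif4e1b and Eif4ebp3.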
